A study of Mus musculus with 15 samples.

Results

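The plasminogen activation system was described in biliary epithelium, the lining of bile ducts, using a line established from adult C57BL/6 mice. It was represented by 6 genes chosen by symbol from the 24421 in the authors' deposited tables: the plasminogen activators Plau and Plat, the urokinase receptor Plaur, the plasminogen receptor Plgrkt, and the serpin inhibitors Serpine2 and Serpinb2. All cells carried the genotype ITR-CreERT2;Klf5flox/flox, in which 4-OH tamoxifen activates a Cre recombinase that deletes floxed alleles of the transcription factor gene Klf5, and the controls received the solvent ethanol. RNA was sequenced from 4 tamoxifen and 4 ethanol libraries at 24 h and from 4 tamoxifen and 3 ethanol libraries at 12 h. Every library shares the inducible genotype and no group lacks it, so the effects of tamoxifen, of the recombinase and of Klf5 loss cannot be told apart. The labels do not say what drives the recombinase or whether the replicates were separate cultures, and p-values then reflect no more than the variation among these libraries, possibly technical. The series' title and its design text differ on whether the cells were grown in vitro or in vivo.

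Plasmin is a broad protease that dissolves fibrin and cuts matrix proteins, growth factors and other proteases. It is made from plasminogen, a protein that the liver secretes, by tissue-type activator (Plat), best known for fibrin clots, and by urokinase (Plau), which works at cell surfaces when bound to its receptor (Plaur). Plgrkt is a membrane protein that holds plasminogen at the surface, and the serpins are suicide inhibitors: Serpine2 and Serpinb2 each block plasminogen activators, and Serpine2 also blocks thrombin.

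The tables hold only the outcome of the authors' tests, 1 table per time, and nothing for single libraries. A level is the mean of normalised read counts over all libraries of a time, and a fold is log2 of tamoxifen over ethanol with its standard error (SE). Genes with an adjusted p under 0.05 in that deposited test, a Wald test, count as called. On average a library held 11.8 M normalised counts at 24 h and 13.9 M at 12 h. The level in each group is not in the tables and was computed here from the mean, the fold and the number of libraries, so it has no SD of its own. Klf5, the targeted gene, fell by 1.72 (SE 0.08) at 24 h and by 1.29 (SE 0.23) at 12 h in the authors' deposited table. All 8 bile duct markers examined were above 0, with means between 9.56 and 14407 at 24 h, and between 2.25 and 25377 at 12 h, in the authors' deposited table. Epcam, at 9.56 at 24 h and 15.7 at 12 h, and Cftr, at 12.7 at 24 h and 2.25 at 12 h, were the low ones among them in the authors' deposited table. The 6 endothelial markers summed to 1.84 and 2.62 normalised counts at 24 h and 12 h, and the 6 fibroblast markers to 11.3 and 29.6. The 6 immune markers summed to 77.9 and 80.5, nearly all of it Cd68, with Ptprc at 0.61 and 2.28 in the authors' deposited table. The 6 hepatocyte markers summed to 723 and 1994, mostly Apoa1 and Ttr, with Alb at 1.48 and 3.68 in the authors' deposited table. Of these 24 markers of other cell types, 4 at 24 h and 8 at 12 h had an adjusted p, none of them endothelial, so the others could not be called. None of those tested was called by the authors' Wald test, and 0 of the 24 had an unadjusted p under 0.05. In such bulk RNA fewer cells of a type and less RNA per cell cannot be told apart.

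Promoter sequences were available for 4 of the 6 genes in the RefSeq table of GRCm38.p6, each from 250 bases before to 50 bases after a start site. Those of Plaur and Serpine2, which had the deepest falls at 24 h, and of Plgrkt, which was not called, are printed from 5′ to 3′ on the strand of the gene. No sequence was available for Plau or for Plat, which was called as lower at 12 h. Capitals mark matches on either strand to CCNCNCCC, a GC-box and CACCC-type sequence of the kind that Krüppel-like factors bind, and to TGANTCA, the AP-1 sequence.
Plaur (GRCm38.p6, chr7:24462233-24462532, plus strand): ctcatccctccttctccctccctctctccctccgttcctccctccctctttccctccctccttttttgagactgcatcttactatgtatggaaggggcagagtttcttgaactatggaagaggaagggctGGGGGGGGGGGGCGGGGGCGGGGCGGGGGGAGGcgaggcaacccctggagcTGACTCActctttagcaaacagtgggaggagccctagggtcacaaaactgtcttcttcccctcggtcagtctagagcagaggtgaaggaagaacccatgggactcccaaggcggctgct
Serpine2 (GRCm38.p6, chr1:79858616-79858915, minus strand): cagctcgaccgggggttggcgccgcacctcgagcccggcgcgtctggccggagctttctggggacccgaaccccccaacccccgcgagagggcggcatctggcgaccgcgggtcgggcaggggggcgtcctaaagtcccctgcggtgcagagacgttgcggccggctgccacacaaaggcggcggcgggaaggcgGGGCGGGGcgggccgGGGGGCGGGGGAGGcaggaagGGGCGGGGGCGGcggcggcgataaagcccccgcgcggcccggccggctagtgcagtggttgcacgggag
Plgrkt (GRCm38.p6, chr19:29361822-29362121, minus strand): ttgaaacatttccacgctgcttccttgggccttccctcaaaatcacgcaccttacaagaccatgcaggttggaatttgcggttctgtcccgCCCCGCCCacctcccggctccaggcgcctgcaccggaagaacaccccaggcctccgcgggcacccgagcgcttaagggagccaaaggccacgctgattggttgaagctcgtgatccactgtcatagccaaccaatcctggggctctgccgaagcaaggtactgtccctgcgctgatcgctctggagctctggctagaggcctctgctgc

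The Plaur promoter holds 11 overlapping matches to CCNCNCCC in a G-rich run that starts 120 bases before the start site, and a TGACTCA 69 bases before it. The matches that start 120 to 116 bases before the start site are all GGGGGGGG, the same run of G counted at each shift. The 11 matches are therefore not 11 separate sites. Serpine2 has 6 such matches, the first starting 55 bases before the start site, and no AP-1 match. Plgrkt has 1 match to CCNCNCCC, 159 bases before its start site. The Serpine2 and Plgrkt windows belong to start sites inside the annotated spans of these genes, given below. On the minus strand those spans begin at 79861180 and 29367390, upstream of the windows' 5′ ends at 79858915 and 29362121. Sequence at the outermost annotated starts of Serpine2 and Plgrkt was not searched. No base lies in matches to both motifs. Of 32851 promoter windows of the same length, 49.5% hold CCNCNCCC at least once, 5.45% at least 6 times and 0.758% at least 11 times, and 7.81% hold TGANTCA. The windows of Plaur, Serpine2 and Plgrkt are 59.3%, 77.7% and 60.7% G and C, against a median of 52.7% over all windows. The 2 Serpinb2 windows overlap and share the same sites: 1 match to CCNCNCCC, 1 to TGANTCA and a TATAAA, which 13.6% of all windows have. That TATAAA starts 29 bases before the first Serpinb2 start site and 116 bases before the second. TATAAA was searched on both strands and occurs in none of the other windows of these genes. A match describes letters and does not show that a factor binds.

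At 24 h Plaur and Serpine2 had fallen to 42.2% and 41.6% of their ethanol levels, while neither activator was called. In all, 2 of the 5 genes with reads fell at 24 h and 2 at 12 h, none rose, and Serpinb2 was listed at 0. Across all tested genes 6.52% were called as lower at 24 h and 0.728% at 12 h. The 6 genes were chosen with these folds known, so their counts and p-values are a description and nothing is read from them. The genes' median fold was -0.18 at 24 h and -0.39 at 12 h, against -0.00040 and -0.0062 over all genes tested.

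**Figure D1:**
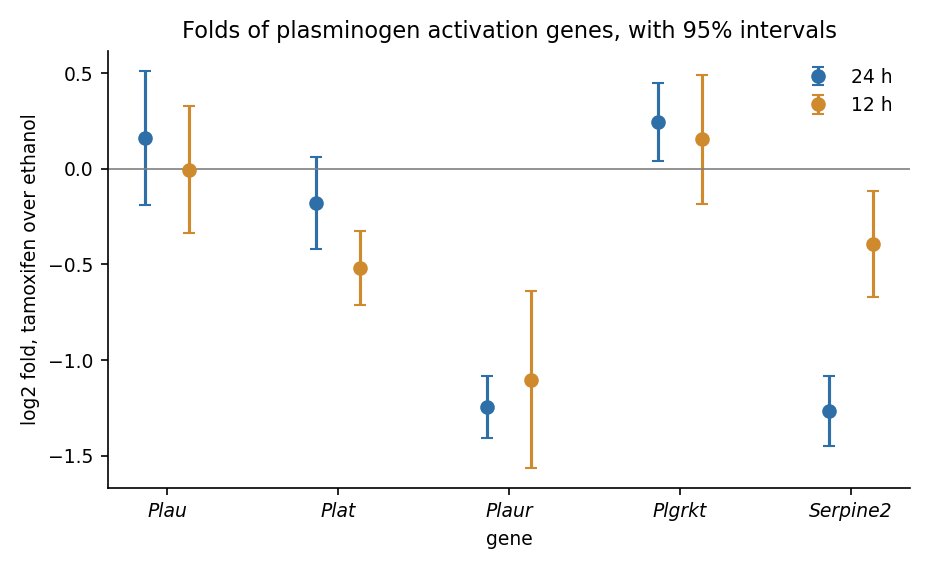
Log2 fold of tamoxifen over ethanol (vertical axis) for the 5 plasminogen activation genes with reads, at 24 h (blue) and 12 h (orange), from the authors' deposited tables; bars are 95% intervals of 1.96 SE on each side. Plaur lies below 0 at both times, and Serpine2 is lower at 24 h (-1.27) than at 12 h (-0.39).

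Urokinase (Plau) lies on chromosome 14 of GRCm38 from 20836660 to 20843385 on the plus strand, with 11 exon blocks. Its level was 96.7 normalised counts in tamoxifen and 86.4 in ethanol at 24 h, and 211 in tamoxifen and 212 in ethanol at 12 h. The group levels are nearly equal at 12 h and close at 24 h. The fold in the authors' deposited table was 0.16 (SE 0.18) at 24 h and -0.0055 (SE 0.17) at 12 h, and neither was called (adjusted p = 0.654 and 0.999 in the authors' Wald test). The 95% intervals, -0.19 to 0.51 at 24 h and -0.34 to 0.33 at 12 h, leave room for a moderate change in either direction.

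Tissue-type activator (Plat) lies on chromosome 8 from 22757727 to 22782844 on the plus strand, with 13 exon blocks. Its level was 1176 normalised counts in tamoxifen and 1330 in ethanol at 24 h, and 1918 in tamoxifen and 2749 in ethanol at 12 h. Tamoxifen libraries thus had 88.4% of the ethanol level at 24 h (95% interval 74.9% to 104%) and 69.8% at 12 h (61.1% to 79.7%). Plat fell at 12 h, with a fold of -0.52 (SE 0.10, adjusted p = 4.17e-05 in the authors' Wald test), and stood at -0.18 (SE 0.12, adjusted p = 0.399) at 24 h in the authors' deposited table. The SE at 24 h was 2.14 times the median SE of genes of similar level, against 0.726 times at 12 h. A call at 12 h and none at 24 h does not show that the folds differ: the 24 h fold minus the 12 h fold was 0.34 (95% interval 0.035 to 0.65), which is given with no test because the gene was chosen with both folds known. Of the nearest tested genes on either side, Ikbkb was not called at either time. The other, Ap3m2, rose by 0.40 (SE 0.11) at 24 h (adjusted p = 0.0040 in the authors' Wald test) and was not called at 12 h.

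The urokinase receptor (Plaur) is a protein anchored to the outer face of the cell membrane by a lipid tail. Plaur lies on chromosome 7 from 24462484 to 24475968 on the plus strand, with 6 exon blocks. It was the receptor with the deepest fold, and its G-rich promoter is printed above. Its level was 1832 normalised counts in tamoxifen and 4341 in ethanol at 24 h, and 2135 in tamoxifen and 4582 in ethanol at 12 h. The ethanol level was the higher at both times, by 2.37-fold and 2.15-fold. Plaur fell by 1.24 (SE 0.08) at 24 h (adjusted p = 8.43e-48 in the authors' Wald test) and by 1.10 (SE 0.24) at 12 h (adjusted p = 0.00072) in the authors' deposited table. These folds put tamoxifen at 42.2% of ethanol at 24 h (95% interval 37.7% to 47.2%) and at 46.6% at 12 h (33.8% to 64.2%). The SE was 1.70 times that of genes of similar level at 24 h and 1.83 times at 12 h. The nearest tested genes on either side, Smg9 and Cadm4, stood at 0.04 (SE 0.08) and -0.36 (SE 0.20) at 24 h in the authors' deposited table and were not called at either time by the authors' Wald test.

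Plgrkt, the plasminogen receptor with a C-terminal lysine, lies on chromosome 19 from 29348599 to 29367390 on the minus strand, with 8 exon blocks. Its level was 448 normalised counts in tamoxifen and 378 in ethanol at 24 h, and 1340 in tamoxifen and 1205 in ethanol at 12 h. Tamoxifen was the higher by a small margin at both times. The fold was 0.25 (SE 0.10) at 24 h (adjusted p = 0.106 and unadjusted p = 0.0179 in the authors' Wald test) and 0.15 (SE 0.17) at 12 h (adjusted p = 0.999) in the authors' deposited table. The 24 h interval, 0.042 to 0.45, lies above 0 although the gene was not called.

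Serpine2, also known as protease nexin-1, lies on chromosome 1 from 79794197 to 79861180 on the minus strand, with 10 exon blocks. Its level was 1358 normalised counts in tamoxifen and 3268 in ethanol at 24 h, and 719 in tamoxifen and 944 in ethanol at 12 h. The ethanol level was the higher at both times, and the gap was much wider at 24 h. Serpine2 fell by 1.27 (SE 0.09) at 24 h in the authors' deposited table (adjusted p = 2.06e-38 in the authors' Wald test). At 12 h its fold was -0.39 (SE 0.14) in the authors' deposited table (unadjusted p = 0.00516 and adjusted p = 0.264 in the authors' Wald test). Tamoxifen stood at 41.6% of ethanol at 24 h (95% interval 36.6% to 47.2%) and at 76.2% at 12 h (62.9% to 92.2%). Its nearest tested neighbours were Mrpl44, 12.8 kb away, and Cul3, 404 kb away. They stood at -0.041 (SE 0.09) and -0.0012 (SE 0.06) at 24 h in the authors' deposited table. Neither was called at either time by the authors' Wald test.

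Serpinb2, an inhibitor of urokinase known from macrophages and keratinocytes, lies on chromosome 1 from 107511423 to 107535478 on the plus strand, and 12.4% of its exon bases are shared with another gene on the same strand. It was listed at 0 in the authors' deposited table at both times. A count of 0 allows up to 3 reads over all libraries, a mean of 0.352 to 0.401 normalised counts at 24 h and of 0.410 to 0.449 at 12 h, counting error only. No fold can be given for it. The other 5 genes share no exon base with another annotated gene.

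**Figure D2:**
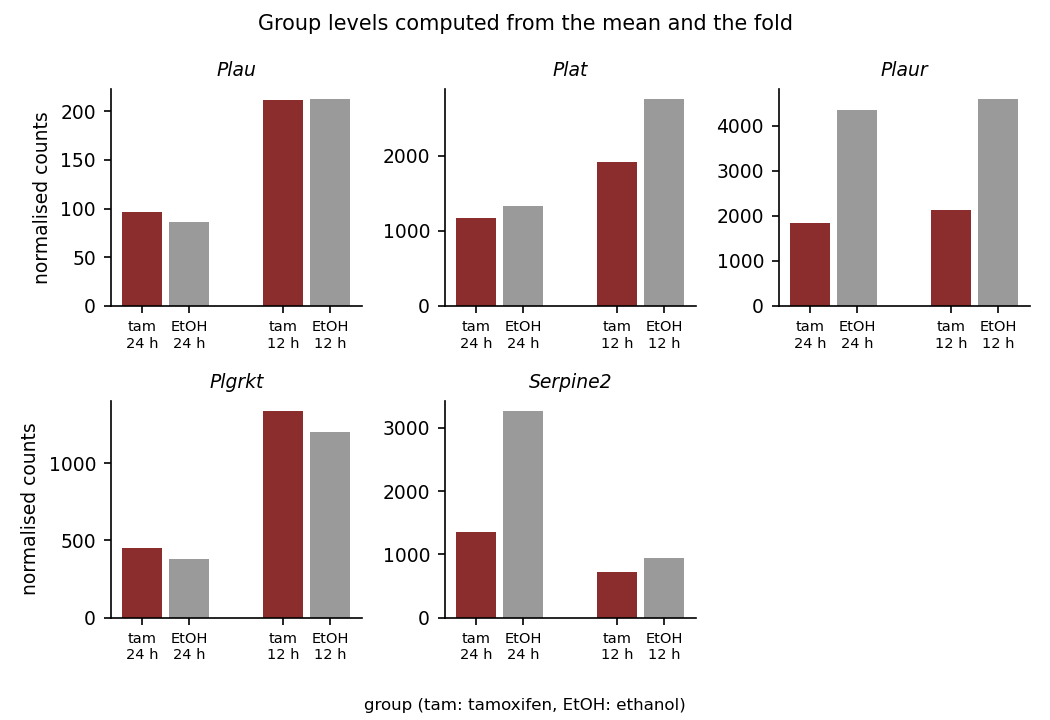
Level in normalised counts (vertical axis, from 0) in tamoxifen (red) and ethanol (grey) at 24 h and 12 h, computed from the mean and fold in the authors' deposited tables; no value per library exists, so no error bar is drawn. Plaur and Serpine2 are lower in tamoxifen, at 1832 against 4341 and 1358 against 3268 at 24 h.

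The genes' order of abundance was compared per length, as normalised counts per kilobase of exon and per M counts. At 24 h the per-length level over both groups was 99.6 for Plaur, 23.6 for Serpine2, 17.0 for Plat, 9.18 for Plgrkt and 3.27 for Plau. At 12 h the per-length level over both groups was 87.6 for Plaur, 26.2 for Plat, 24.3 for Plgrkt, 7.08 for Serpine2 and 6.44 for Plau. Over both groups Plaur stood above 97.4% of the 15185 genes with reads and an exon length at 24 h, and Plau above 46.7%. Plaur was the most abundant of the 5 in each group at both times, but the order below it differed between the groups. At 24 h the per-length level of Serpine2 was below that of Plat in tamoxifen, at 13.8 against 15.9, and above it in ethanol, at 33.3 against 18.0. At 12 h Plgrkt was above Plat in tamoxifen, at 25.4 against 22.1, and below it in ethanol, at 22.8 against 31.7. Plau had the lowest per-length level in both groups at 24 h and in ethanol at 12 h, whereas in tamoxifen at 12 h Serpine2, at 6.25, and Plau, at 6.43, were nearly equal. These group levels have no SD, so whether neighbours in the order differ was not tested. Per length, there was 17.1 times as much Plaur as Plau RNA in tamoxifen at 24 h, against 45.4 times in ethanol, and 9.14 times in tamoxifen at 12 h, against 19.5 times in ethanol. These ratios have no interval, because the tables do not tell how the genes vary together.

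Levels also differed between the times, although the 24 h and 12 h tables were normalised separately and time was not tested. As a share of all normalised counts, Serpine2 was 3.33 times as high at 24 h as at 12 h, and 60 of 9008 genes with a mean of at least 100 at both times had a larger ratio. In tamoxifen libraries the ratio of Serpine2 at 24 h over 12 h was 2.21, and in ethanol libraries it was 4.06. So Serpine2 was more abundant at 24 h in both groups, and less so in tamoxifen. Plgrkt, at 0.378 times its 12 h share, was at the other end of the range, with 223 of the 9008 genes below it. Plau and Plat had 0.507 and 0.646 times their 12 h shares. For Plaur the ratio was 1.01 in tamoxifen libraries and 1.11 in ethanol libraries; over all libraries it was 1.14, above both, because tamoxifen libraries are 4 of 8 at 24 h and 4 of 7 at 12 h.

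**Figure D3:**
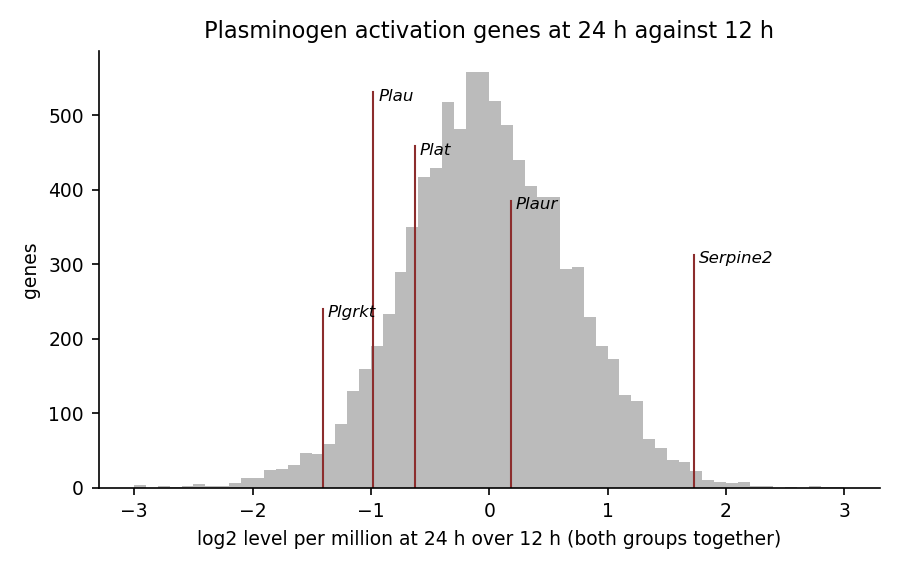
Histogram of the log2 ratio of a gene's share of normalised counts at 24 h over 12 h (horizontal axis, bin width 0.1) for 9008 genes with a mean of at least 100 at both times (vertical axis, number of genes; values beyond -3 and 3 are drawn in the end bins), with lines for the 5 plasminogen activation genes with reads. Serpine2 lies far to the right at 1.73 and Plgrkt to the left at -1.40.

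The change of the tamoxifen fold between the times was then set beside that of all genes. For Serpine2 the 24 h fold minus the 12 h fold was -0.87 (SE 0.17, 95% interval -1.21 to -0.54). Of the 14981 genes that had a p at each time, 2 passed an adjusted p under 0.05 in a Wald test of the difference, which is 0.0134%. Serpine2 was among them, and the other was Msln, the surface glycoprotein mesothelin, at -0.64 (SE 0.13), named after its value was seen. As Serpine2 was chosen with the folds of both times known, its place there is a description and no p is given for it. The difference was -0.14 (95% interval -0.63 to 0.35) for Plaur, 0.17 (-0.32 to 0.65) for Plau and 0.092 (-0.30 to 0.48) for Plgrkt. For these 3 genes the interval includes 0.

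**Figure D4:**
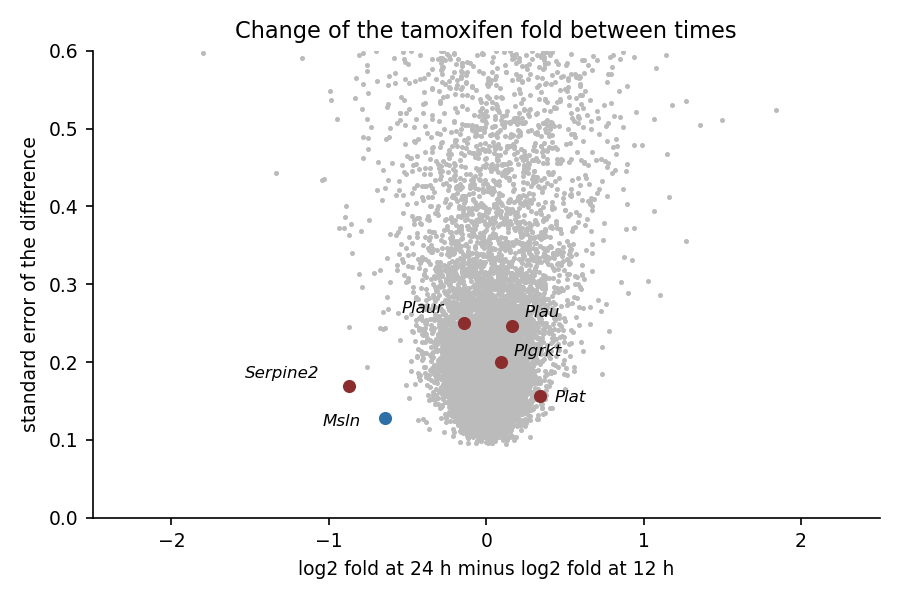
Log2 fold at 24 h minus log2 fold at 12 h (horizontal axis) against the SE of that difference (vertical axis) for the 10959 genes with an SE under 0.6 and a difference within 2.5; grey points are genes, red points the 5 plasminogen activation genes with reads and the blue point Msln. Serpine2 at -0.87 and Msln at -0.64 lie outside the cloud at their SE, and Plaur, Plau, Plgrkt and Plat lie within or at the edge of it.

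Of 60 other genes of plasminogen activation, its inhibitors, surface partners and substrates, 12 were listed at 0 at each time, and 34 at 24 h and 39 at 12 h were tested in the authors' deposited tables. At 24 h 5 fell, 4 rose and 25 did not pass the threshold by the authors' Wald test, against 6.52% lower and 5.9% higher over all genes tested. At 12 h 1 fell, none rose and 38 did not pass, against 0.728% lower and 0.215% higher. Their median fold was 0.017 at 24 h and 0.090 at 12 h. None of the 46 with a p at both times differed between the times at an adjusted p under 0.05 in the Wald test of the difference (smallest adjusted p = 0.9999), and 4 had an unadjusted p under 0.05. The lists were chosen with earlier results of these data known.

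Of the 13 other inhibitors listed, 5 were tested at 24 h and 8 at 12 h. At 24 h 1 fell and none rose, against 6.52% lower and 5.9% higher over all genes tested. At 12 h 0 were called by the authors' Wald test, and 2 had an unadjusted p under 0.05. Serpinb6a, an intracellular serpin with similar paralogues whose reads could be shared, fell by 0.30 (SE 0.04) at 24 h in the authors' deposited table (adjusted p = 4.62e-14 in the authors' Wald test). Serpinf2, the main inhibitor of plasmin itself, was not called, at 0.65 (SE 0.31) at 24 h and 0.57 (SE 0.28) at 12 h in the authors' deposited table, from means of 26.2 and 81.8 normalised counts. Of the 27 clade B serpin symbols, the group that holds Serpinb2, 11 were listed at 0 at 24 h and 13 at 12 h. Of the 7 tested at 24 h 2 fell and none rose, against 6.52% lower and 5.9% higher over all genes tested. Of the 9 tested at 12 h none fell and 1 rose, against 0.728% lower and 0.215% higher. The calls not yet given, Serpinb9b at -0.45 (SE 0.13) at 24 h and Serpinb9 at 0.51 (SE 0.14) at 12 h in the authors' deposited table, belong to a cluster of similar genes and were named after their values were seen.

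Of 13 other receptors and surface partners tested at 24 h, 2 fell and 1 rose. Over all genes tested, 6.52% were lower and 5.9% higher at 24 h. None of these receptors and partners was called at 12 h by the authors' Wald test, where 2 had an unadjusted p under 0.05. The falls were Anxa2 and S100a10, which together form a surface complex that binds plasminogen and Plat, at -0.61 (SE 0.04) and -0.79 (SE 0.06) at 24 h in the authors' deposited table. At 12 h they stood at -0.24 (SE 0.11) and -0.45 (SE 0.15) and were not called in the authors' deposited table. The integrin chain Itga3, which binds Plaur and laminin, rose by 0.44 (SE 0.07) at 24 h in the authors' deposited table. Lrp1 and Vldlr, endocytic receptors that clear activator and serpin complexes, were at 0.40 (SE 0.22) and -0.099 (SE 0.07) at 24 h in the authors' deposited table and were not called. Eno1, a glycolytic enzyme that also binds plasminogen, was listed at 0 at 24 h and had a mean of 0.57 at 12 h in the authors' deposited table. It has a near-identical copy, Eno1b, so this value is uncertain. Eno1b itself had means of only 0.13 at 24 h and 0.14 at 12 h in the authors' deposited table.

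Plasminogen itself (Plg), on chromosome 17 from 12378608 to 12419385, was listed at 0 in the authors' deposited table at both times, as were the membrane serine protease gene Hpn and the vitronectin gene Vtn. Of the 11 other activating proteases, 5 were tested at each time. At 12 h 0 were called by the authors' Wald test, and 0 had an unadjusted p under 0.05. At 24 h 2 rose and none fell, against 5.9% higher and 6.52% lower over all genes tested. Those that rose were the membrane serine protease Tmprss2, by 0.81 (SE 0.18), and the lysosomal protease Ctsl, by 0.10 (SE 0.03), in the authors' deposited table. Among 21 substrate and coagulation genes, 2 fell and 1 rose of 11 tested at 24 h, and 1 fell and none rose of 13 tested at 12 h. The shares over all genes tested were 6.52% lower and 5.9% higher at 24 h, and 0.728% and 0.215% at 12 h. The protease-activated receptor gene F2rl1 fell by 0.46 (SE 0.14) at 24 h and by 0.85 (SE 0.15) at 12 h, and the thrombin receptor gene F2r fell by 0.16 (SE 0.05) at 24 h, in the authors' deposited table. Thrombomodulin (Thbd), which turns thrombin from clotting to protein C activation, rose by 0.52 (SE 0.09) at 24 h in the authors' deposited table. Tissue factor (F3), which starts coagulation, was not called, at -0.26 (SE 0.17) at 24 h in the authors' deposited table.

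**Figure D5:**
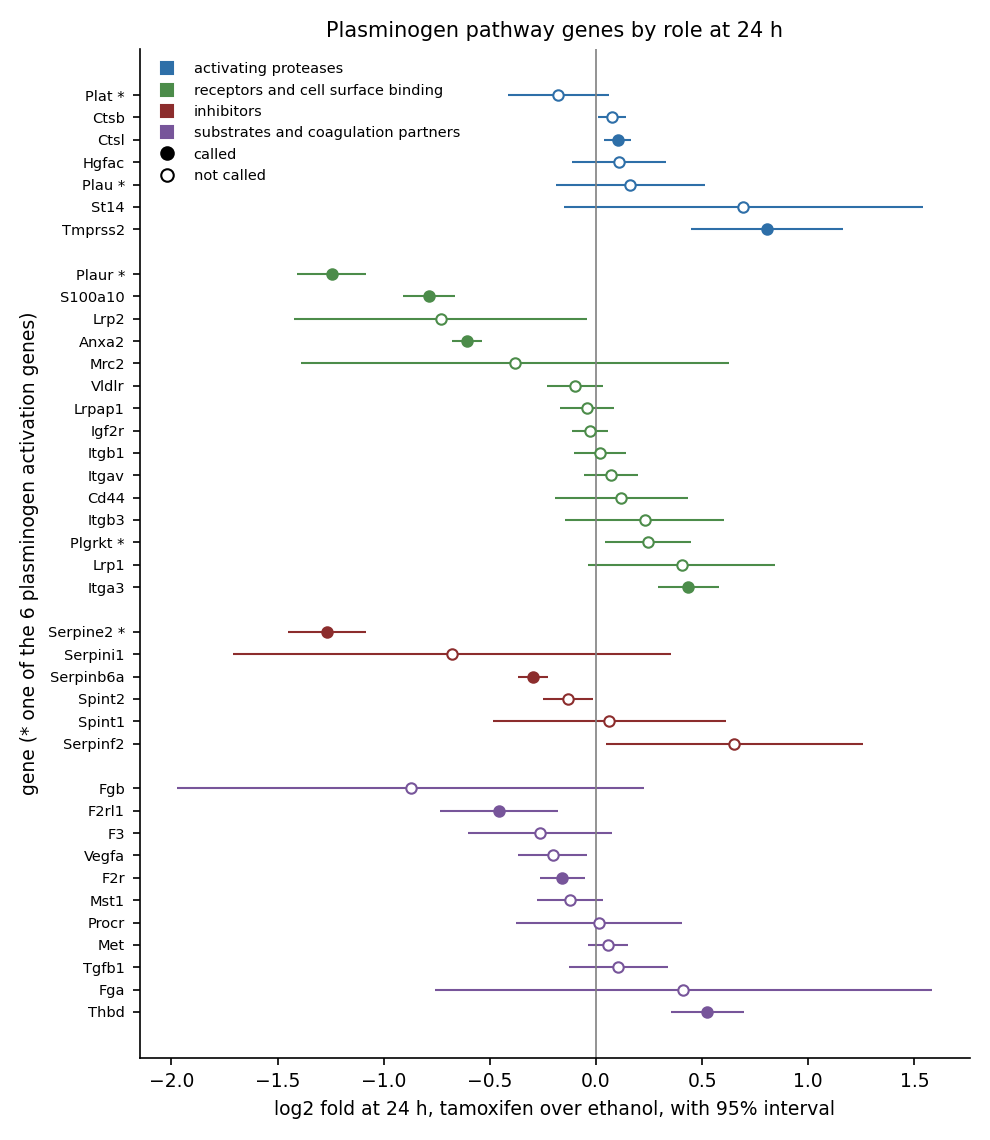
Log2 fold of tamoxifen over ethanol at 24 h (horizontal axis) with 95% intervals for the plasminogen pathway genes tested in the authors' deposited table, grouped by role (colour); filled points were called and open points were not, and a star marks the 5 of the 6 chosen genes that were tested. Plaur, S100a10 and Anxa2 lie lowest among called receptors, and Serpine2 lies lowest among the inhibitors.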

How the data were processed

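Single-end RNA-seq libraries (15) were prepared, per the labels' protocols, with TruSeq RNA v2 reagents, which do not mark the strand, and grouped by agent and time from their titles. The submitters' processing notes name HISAT2, mm10 and DESeq2, without versions, roles or order; the counting tool and gene annotation were not given in the sources used here. Per the file headers, the authors deposited the mean normalised count (a signal over the libraries of a time), the log2 fold change, its standard error and Wald score, the p-value of each gene before and after adjustment, with each time normalised separately. The 24 h direction was taken to be that of 12 h, where the lowest means, those of genes with a single read, split into 3 with negative and 4 with positive folds, as 3 ethanol and 4 tamoxifen libraries require.

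Computed here were 95% intervals, group levels, per-length levels (union of GENCODE M21 exons, GRCm38), each SE over the running median of 201 genes of similar mean, and the difference of folds between times over the root of the summed squared SEs, Benjamini-Hochberg adjusted over 14981 genes. That test was also run on folds simulated from the deposited SEs of genes with a mean of at least 100 at both times. Those folds follow the test's own assumptions, so that run cannot show whether the assumptions hold for these data. The 6 genes and the lists were chosen with earlier results of these data known. Named genes are the 6, Plg, Serpinf2, Klf5 and every called pathway gene, except 1 not reported here and left out of the lists; neighbours, markers and list examples are named besides. Python 3.11.15, numpy 2.4.6, pandas 2.3.3 and scipy 1.17.1 were used.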

Additional observations from a re-analysis of the deposited data

Results flagged for a closer look

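Serpine2 is given here for the gap between its folds at the 2 times: the log2 fold of tamoxifen over ethanol at 24 h minus that at 12 h was -0.87 (SE 0.17). The folds were -1.27 at 24 h and -0.39 at 12 h in the authors' deposited tables. Serpine2 was chosen with these folds known, so the gap is a description and no test of it is read. Its share of all normalised counts was also 3.33 times as high at 24 h as at 12 h, and the part of that shift in the difference was not tested.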

How the results depend on the processing

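The counts of called genes among the 6 (2 at 24 h and 2 at 12 h) were the same when adjustment ran over every gene with a p-value, adjusted over genes with a mean of at least 10, held to an adjusted p under 0.01, or recomputed with folds centred on the median of genes with a mean of at least 100 (-0.0072 at 24 h and -0.0060 at 12 h). For the other pathway genes the counts were 9 at 24 h and 1 at 12 h under each of these, except that 6 passed an adjusted p under 0.01 at 24 h; Ctsl, F2r and F2rl1 did not. In the Wald test of the difference, 0 pathway genes outside the 6 differed between the times under each alternative tried, with 4 at an unadjusted p under 0.05. No paired analysis was possible because the tables hold no value per library, and leaving out each replicate was not run for the same reason. Members of the lists with a mean under 7.34 at 24 h or 1.84 at 12 h have no adjusted p and could not be called.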
